A study of Mus musculus with 3 samples.

Results

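The genes described here are 8 lysosomal cathepsins (*Ctsa*, *Ctsb*, *Ctsc*, *Ctsd*, *Ctsh*, *Ctsl*, *Ctss* and *Ctsz*) and *Cst3*, which encodes the cathepsin inhibitor cystatin C. They were chosen by symbol and are 9 of the 31053 genes in the files. They were compared between microglia, the resident macrophages of the brain, and myeloid cells recruited from blood, in a mouse model of glioblastoma (GBM) profiled by droplet single-cell RNA sequencing (scRNA-seq).

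Recipients were female wild-type C57BL/6 mice, 6 to 8 weeks old when sourced, and every group carried the same intracranial implant of 1 syngeneic brain tumor-initiating cell line that came from NPcis mice with *Nf1* and *Trp53* mutations and expressed luciferase and GFP. The vehicle group received saline, and the niacin group received niacin at 100 mg/kg daily by intraperitoneal injection from day 7. At 4 weeks after implantation, brain tissue around the injection site was pooled within each sample, and live cells were sorted after Percoll separation. The labels give 4 pooled tissues per sample, 5 control mice and 10 niacin-treated mice, and the data consist of 3 libraries, vehicle replicate 2, niacin replicate 1 and niacin replicate 2. Since the vehicle group has 1 library, niacin was not tested against vehicle.

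Cathepsins are proteases that work mainly in the acid interior of lysosomes. *Ctsb*, *Ctsc*, *Ctsh*, *Ctsl*, *Ctss* and *Ctsz* encode cysteine proteases, *Ctsd* encodes an aspartic protease, and *Ctsa* encodes a serine carboxypeptidase that also protects other lysosomal enzymes. Cystatin C is secreted and blocks cysteine cathepsins, so it does not act on cathepsin D. Transcription factors of the TFEB family switch on many lysosomal genes through promoter elements built around the letters CACGTG. In the GRCm38 annotation (GENCODE M21) *Cst3* lies at chr2:148871722-148875692, *Ctsd* at chr7:142375911-142388038, *Ctsl* at chr13:64359337-64370890 and *Ctsz* at chr2:174427493-174439039, all on the minus strand. On the plus strand are *Ctsa* at chr2:164832873-164841032, *Ctsb* at chr14:63122462-63145923, *Ctsc* at chr7:88278085-88310888, *Ctsh* at chr9:90054152-90076089 and *Ctss* at chr3:95526786-95556403.

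The 250 bases upstream of the RefSeq start (GRCm38.p6) were available for 7 of the 9 genes, and *Ctsd*, *Ctsa* and *Ctsl* held CACGTG there, a motif that reads the same on both strands. The stretches around it are shown because they are the only matches among these 7 genes, with the motif in capitals and the gene's own strand written 5′ to 3′. The share of all 32851 promoters of this length with the motif was 6.02%, counted per RefSeq start and not per gene. The 7 genes have 8 such starts, because *Ctsa* has a second one, and the first *Ctsa* start has no match. A match is a description of letters. RefSeq starts can differ from the ends of the GENCODE spans above. The RefSeq start is chr7:142387827 for *Ctsd*, 211 bases downstream of the GENCODE start, and chr13:64370520 for *Ctsl*, 370 bases downstream. The *Ctsa* match belongs to the second of its RefSeq starts, chr2:164833773, which is 900 bases downstream. The *Ctsa* and *Ctsl* stretches and the one of *Ctsd* nearest the start therefore lie before the RefSeq start but inside the GENCODE span of their gene, and the other *Ctsd* stretch lies upstream of both starts. The positions are chr7:142388055-142388077 and chr7:142387908-142387937, both on the minus strand, for *Ctsd*, chr2:164833749-164833772 on the plus strand for *Ctsa* and chr13:64370739-64370768 on the minus strand for *Ctsl*.
Ctsd, 245 bases before the RefSeq start: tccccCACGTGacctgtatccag
Ctsd, 98 bases before the RefSeq start: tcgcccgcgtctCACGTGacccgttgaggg
Ctsa, 12 bases before the RefSeq start: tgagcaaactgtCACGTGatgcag
Ctsl, 236 bases before the RefSeq start: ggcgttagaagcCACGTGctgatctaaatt

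The files hold counts of captured RNA molecules, each read at its 3′ end and told apart by a unique molecular identifier (UMI), and the libraries held 8301228 to 10359526 UMIs. The libraries shared cell barcodes, 478 between vehicle replicate 2 and niacin replicate 1, 458 between vehicle replicate 2 and niacin replicate 2 and 892 between the niacin libraries, of which 452 occurred in all 3. A shared barcode had a median of 9183 to 13848 UMIs in the library where it was deepest and 638 to 653 UMIs elsewhere. Such barcodes were left out, which kept 3478 of the 5528 cells that passed quality control, and the tests of microglia-like against recruited cells were recomputed with them kept. Cells were assigned by UMIs of marker genes, none of them a cathepsin, a cystatin or another lysosomal gene. Microglia-like cells numbered 362, 566 and 853 in vehicle replicate 2, niacin replicate 1 and niacin replicate 2, the order used for all values given as 3 below. Recruited myeloid-like cells numbered 184, 18 and 35. Leaving out shared barcodes took a larger part of the recruited class. With them kept in the library where they were deepest, microglia-like cells numbered 2113 in place of 1781. Recruited myeloid-like cells then numbered 414 in place of 237. All 10 microglia markers were detected in the first class and all 13 recruited myeloid markers in the second, and no marker of another class was among the 10 leading genes of either. Summed over the list, the microglia markers ran from 12406 to 14922 CPM (UMIs scaled to a class total of 1000000) in microglia-like and from 67.6 to 158 CPM in recruited myeloid-like cells. Since these markers set the classes, their levels describe the classes and are no separate check of them. The make-up of the recruited class differed between libraries. In vehicle replicate 2, 119 of its cells were classical monocyte-like and 10 nonclassical monocyte-like, whereas 15 of 18 cells in niacin replicate 1 and 24 of 35 in niacin replicate 2 were nonclassical monocyte-like. This make-up depended on the barcodes used. With shared barcodes kept in the library where they were deepest, nonclassical monocyte-like cells were 12 of 300, 37 of 52 and 33 of 62. Classical monocyte-like cells then numbered 192, 9 and 23.

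Microglia-like cells carried more RNA of most of these genes than recruited myeloid-like cells did. *Ctsd*, *Ctsl* and *Cst3* were higher by 18.9-, 12.3- and 9.73-fold, and *Ctsz*, *Ctsh*, *Ctss* and *Ctsa* were higher by 1.80- to 2.28-fold. *Ctsb* and *Ctsc* did not pass the test. For each library the UMIs of a class were added up, and these sums went into edgeR's quasi-likelihood test, blocked by library, at a Benjamini-Hochberg adjusted p under 0.05 over all 9154 genes tested. By this rule 7 of the 9 genes were higher and 0 lower in microglia-like cells, where 17.4% of all genes tested were called higher, 14% lower and 31.3% in either direction. At an unadjusted p under 0.05, and with DESeq2, 0 of the 9 were lower as well. DESeq2 called 6 of the 9 higher. The median log2 fold change was 1.17 over the 9 genes and 0.24 over all genes. All 9 genes passed the filter on low counts. In bulk sums of this kind the level per class is a share of that class's RNA, so a lower total of other RNA and a higher amount of these RNAs cannot be told apart.

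**Figure D1:**
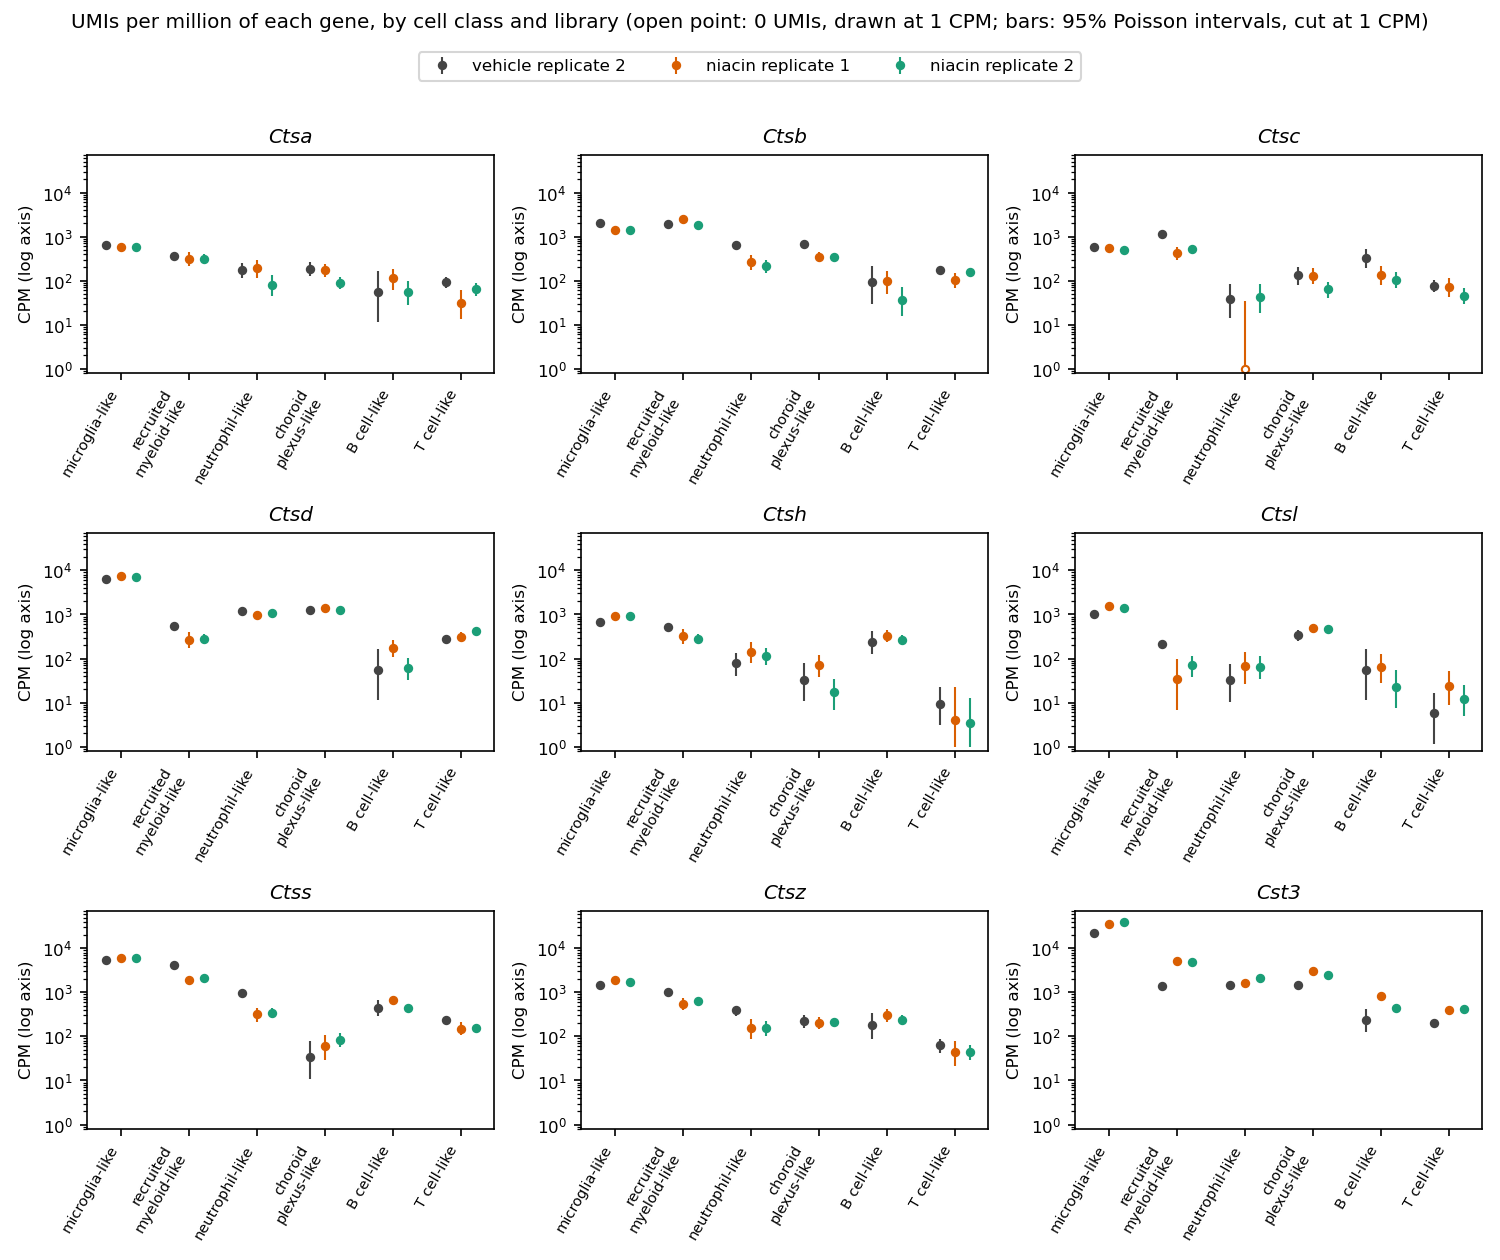
Level of each gene in 6 cell classes and 3 libraries, in CPM on a log axis, with exact 95% Poisson intervals for counting error as bars, both cut at 1 CPM, and a count of 0 as an open point at 1 CPM. *Cst3*, *Ctsd*, *Ctsl*, *Ctss*, *Ctsz*, *Ctsh* and *Ctsa* sit highest in microglia-like cells in every library, while *Ctsb* and *Ctsc* overlap between microglia-like and recruited myeloid-like cells.

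*Cst3* was the second most abundant RNA of the genes tested in microglia-like cells. Its level there was 22448, 34854 and 39410 CPM, against 1388, 5034 and 4778 CPM in recruited myeloid-like cells. Every microglia-like value lay above every recruited value, and the vehicle library was the lowest of both classes. The log2 fold change was 3.28 with a standard error (SE) of 0.30 and an edgeR adjusted p of 2.3e-06. After each cell was thinned to 2000 UMIs, a median microglia-like cell still held 43, 65 and 78 *Cst3* UMIs and a median recruited myeloid-like cell 2, 10 and 9.

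*Ctsd*, the aspartic protease, ranked seventh by level among the genes tested in microglia-like cells. It reached 6228, 7296 and 7134 CPM there and 562, 270 and 284 CPM in recruited myeloid-like cells. The classes did not overlap, and the vehicle library was the lowest in microglia-like and the highest in recruited cells. With a log2 fold change of 4.24 (SE 0.35, edgeR adjusted p = 9.2e-07), *Ctsd* showed the largest difference of the 9 genes. In recruited myeloid-like cells its level did not stand apart from that of T cell-like cells, which held 284, 315 and 411 CPM. It also lay below choroid plexus-like cells, with 1235 to 1425 CPM, and neutrophil-like cells, with 986 to 1197 CPM.

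*Ctsl*, a cysteine cathepsin with broad activity in lysosomes, was at 1035, 1536 and 1427 CPM in microglia-like cells and at 212, 33.8 and 69.7 CPM in recruited myeloid-like cells. The lowest recruited value rests on 3 UMIs, with an exact 95% Poisson interval of 6.97 to 98.7 CPM. The classes did not overlap, and the log2 fold change was 3.63 (SE 0.48, edgeR adjusted p = 7.0e-05). At 2000 UMIs per cell, 76.8%, 90.7% and 90.9% of microglia-like cells held a *Ctsl* UMI. Of recruited myeloid-like cells 22.4% and 16.7% had one in vehicle replicate 2 and niacin replicate 2, and 0 of 16 had one in niacin replicate 1, which allows a share of up to 18.8%. In T cell-like cells, a class taken as background for free RNA, the shares were 1.25%, 5.00% and 0% of 80, 40 and 81 cells, and the 0 allows up to 3.70%. The median depth before thinning was 4521 to 6808 UMIs in microglia-like, 5128 to 7209 in recruited and 5921 to 6469 in T cell-like cells, among the cells deep enough to be thinned. Without thinning the *Ctsl* shares were 80.1%, 93.5% and 86.9% in microglia-like, 34.2%, 16.7% and 28.6% in recruited and 2.15%, 11.5% and 7.61% in T cell-like cells. Microglia-like cells had the highest share in every library either way, and the thinned recruited share of niacin replicate 1 was not above the T cell-like one.

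**Figure D2:**
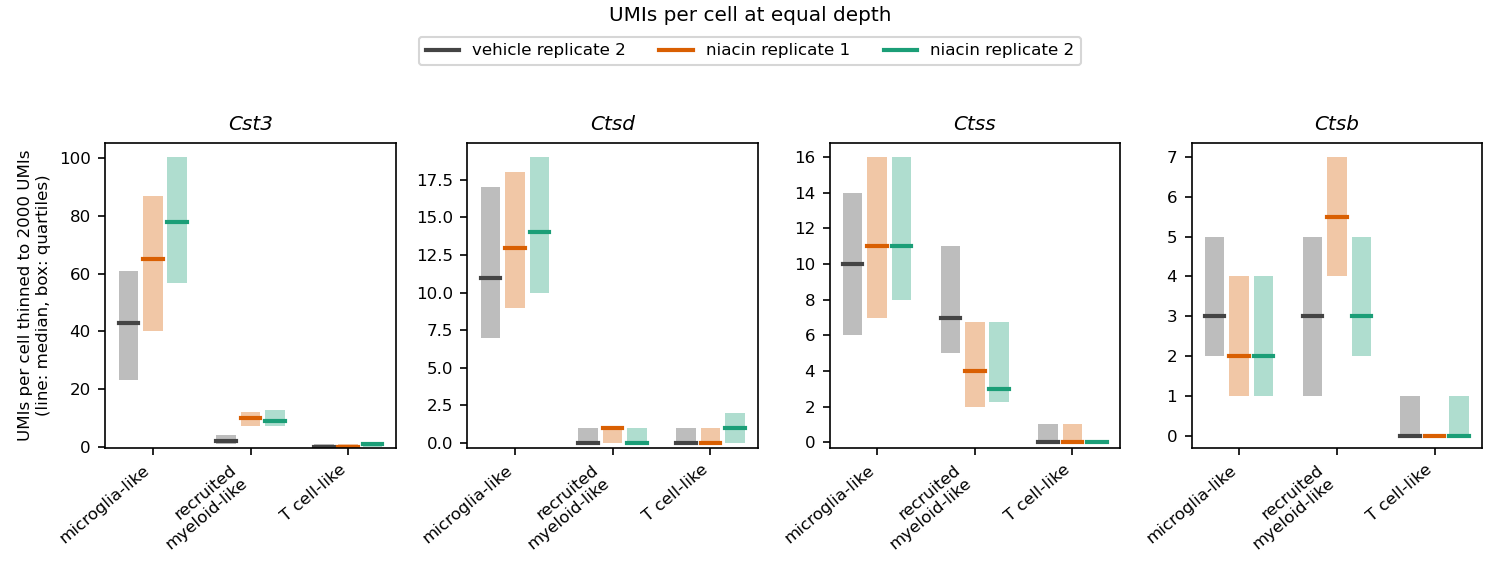
UMIs per cell of *Cst3*, *Ctsd*, *Ctss* and *Ctsb* after thinning each cell to 2000 UMIs, by class and library, with a line at the median and a box from the lower to the upper quartile. The *Cst3* medians are 43, 65 and 78 in microglia-like cells and 2, 10 and 9 in recruited myeloid-like cells, while the *Ctsb* medians of the classes are 3, 2 and 2 against 3, 5.5 and 3.

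*Ctss*, a cysteine cathepsin of antigen-presenting cells that trims the MHC class II invariant chain, was abundant in both classes. It reached 5415, 6034 and 6108 CPM in microglia-like cells and 4270, 1948 and 2120 CPM in recruited myeloid-like cells. The values did not overlap, but the gap in the vehicle library was small, at a log2 ratio of 0.34 against 1.63 and 1.53 in the niacin libraries. The fitted log2 fold change was 1.17 (SE 0.32, edgeR adjusted p = 0.012). The call was lost when shared barcodes were kept (adjusted p = 0.061).

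*Ctsz*, a carboxypeptidase among the cysteine cathepsins, was at 1439, 1865 and 1719 CPM in microglia-like cells and 1034, 552 and 651 CPM in recruited cells. Microglia-like values were higher in every library, and the log2 fold change was 1.19 (SE 0.31, edgeR adjusted p = 0.0098).

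*Ctsh*, a cysteine aminopeptidase, was at 687, 916 and 938 CPM in microglia-like cells and 529, 327 and 279 CPM in recruited cells. The classes did not overlap, and the vehicle library again held the narrowest gap. The log2 fold change was 1.17 (SE 0.32, edgeR adjusted p = 0.014), and with shared barcodes kept the adjusted p rose to 0.085.

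*Ctsa*, the carboxypeptidase, was at 631, 584 and 574 CPM in microglia-like and 355, 315 and 316 CPM in recruited cells. Its ratio hardly varied between libraries, with log2 values of 0.83, 0.89 and 0.86. The fitted log2 fold change was 0.85 (SE 0.26, edgeR adjusted p = 0.023). When either niacin library was left out, *Ctsa*, *Ctsh*, *Ctss* and *Ctsz* all lost their call, with edgeR adjusted p from 0.13 to 0.29, while *Ctsd*, *Ctsl* and *Cst3* remained called.

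*Ctsb*, a cysteine protease with endopeptidase activity, was at 2053, 1416 and 1428 CPM in microglia-like cells and at 1921, 2511 and 1869 CPM in recruited cells. The classes overlapped. The log2 fold change was -0.37 (SE 0.25, edgeR adjusted p = 0.28), and 2 standard errors either way span -0.86 to 0.12.

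*Ctsc*, the dipeptidyl peptidase that activates granule serine proteases of leukocytes, was at 593, 539 and 490 CPM in microglia-like cells and at 1116, 417 and 521 CPM in recruited cells. Recruited cells were higher in vehicle replicate 2 and close to microglia-like cells in the niacin libraries. The log2 fold change was -0.24 (SE 0.31, edgeR adjusted p = 0.59), with 2 standard errors either way spanning -0.86 to 0.37. With the vehicle library left out it turned to 0.10.

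**Figure D3:**
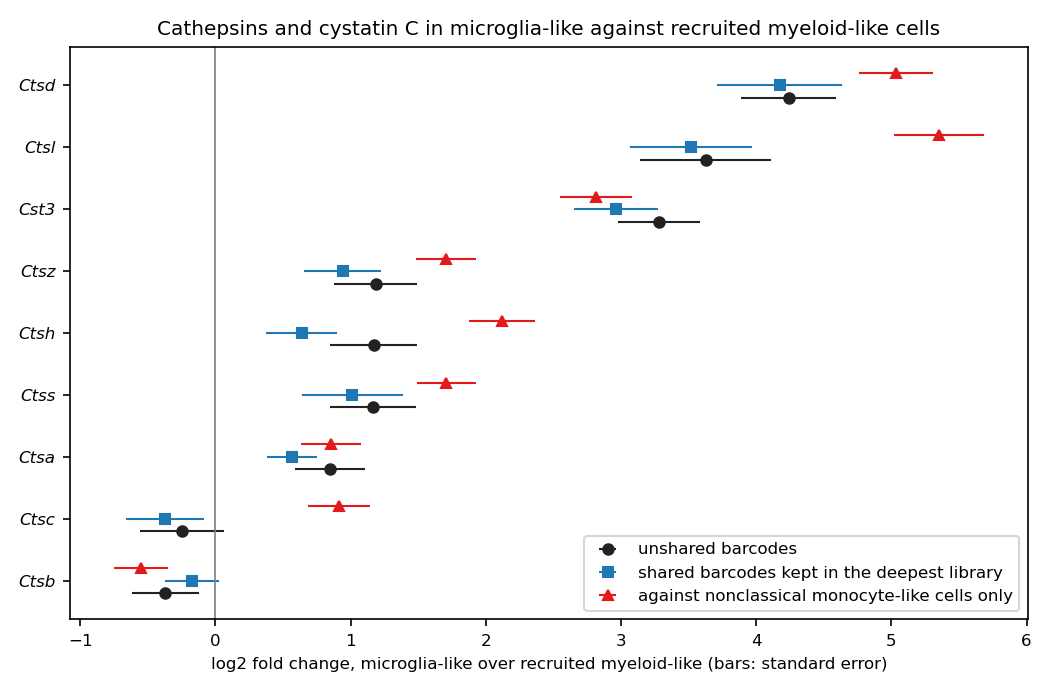
Log2 fold change of each gene in microglia-like over recruited myeloid-like cells, with the standard error as a bar, with shared barcodes left out (circles), with them kept in the library where they are deepest (squares), and against nonclassical monocyte-like cells only (triangles). *Ctsd*, *Ctsl* and *Cst3* lie at 2.81 or above in all 3 settings, and *Ctsc* lies below 0 in the first pair and at 0.91 in the third.

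The recruited states differed in these genes, and each library held them in other proportions. In vehicle replicate 2, the 119 classical monocyte-like cells had 4819 CPM of *Ctss* and 1301 CPM of *Ctsc*, and the 10 nonclassical monocyte-like cells 2137 and 179 CPM. *Cst3* ran the other way, with 1161 CPM in classical and 4483 CPM in nonclassical monocyte-like cells. The 20 macrophage-like cells of that library held 774 CPM of *Ctsl* and 938 CPM of *Ctsd*, above 192 and 530 CPM in its classical monocyte-like cells. These are values of 1 library with no test.

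Nonclassical monocyte-like cells were the single recruited state with at least 10 cells in every library. In these cells *Cst3* was at 4483, 5133 and 4929 CPM, *Ctss* at 2137, 1840 and 1851 CPM and *Ctsb* at 3004, 2567 and 2153 CPM. Against these cells alone, in a comparison chosen after seeing the data, 8 of the 9 genes were called higher in microglia-like cells, *Ctsc* included (log2 fold change 0.91, SE 0.23, edgeR adjusted p = 0.00035). Of all 8526 genes tested there, 21.2% were called higher, 14.5% lower and 35.7% in either direction. *Ctsb* was called lower (log2 fold change -0.55, SE 0.20, edgeR adjusted p = 0.021), a call that was lost with shared barcodes kept in the deepest library (log2 fold change -0.45, edgeR adjusted p = 0.080). *Ctsl* and *Ctsd* showed log2 fold changes of 5.35 and 5.03.

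The mix of cathepsin RNAs also separated the classes. Since each captured molecule gives a single 3′ tag, UMI counts were compared between genes without a correction for length. *Ctsd* supplied 34.4%, 36.1% and 36.0% of the UMIs of the 8 cathepsins in microglia-like cells, against 5.62%, 4.24% and 4.64% in recruited myeloid-like cells. *Ctsb* supplied 11.4%, 7.02% and 7.21% in microglia-like cells and 19.2%, 39.4% and 30.6% in recruited cells. Neither share overlapped between the classes. *Ctss* supplied 30.2% ± 0.52 (SD, n = 3) in microglia-like and 36.0% ± 6.17 (SD, n = 3) in recruited cells, which overlapped.

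*Cst3* UMIs outnumbered those of the 6 cysteine cathepsins together in microglia-like cells, by 2.00, 2.83 and 3.25 to 1. In recruited myeloid-like cells the ratio was 0.15, 0.87 and 0.87. The ratios did not overlap, and the vehicle library was the lowest in both classes. All 9 genes together made up 5.16% ± 0.98 (SD, n = 3) of all UMIs of microglia-like cells and 1.12% ± 0.03 (SD, n = 3) of those of recruited myeloid-like cells.

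**Figure D4:**
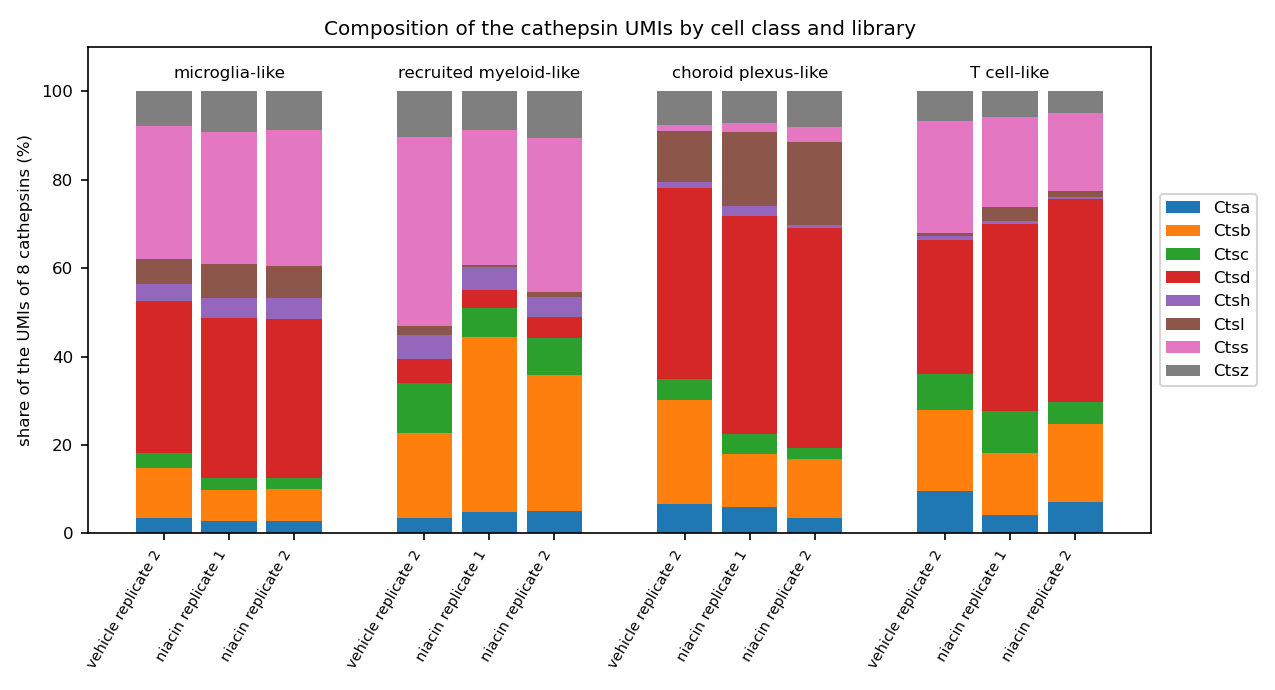
Share of each gene in the UMIs of the 8 cathepsins, in percent, for 4 cell classes and each library. *Ctsd* and *Ctss* fill most of each microglia-like bar, *Ctss* and *Ctsb* most of each recruited myeloid-like bar, and *Ctsd* is the largest part, with 43.3% to 49.8%, in choroid plexus-like cells.

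Across the 6 classes with at least 10 cells in each library, microglia-like cells ranked first for 7 genes, and recruited myeloid-like cells ranked first for *Ctsb* and *Ctsc* without standing apart from microglia-like cells. The order below them differed by gene. *Ctsl* came second in choroid plexus-like cells, with 334, 482 and 477 CPM, above every recruited value. *Ctsh* in recruited myeloid-like cells overlapped with B cell-like cells, at 241, 328 and 262 CPM. Recruited, choroid plexus-like and neutrophil-like cells overlapped from each to the next for *Cst3*.

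T cell-like cells gave the level that free RNA and their own expression could reach. *Cst3* there was 0.91% to 1.12% of the microglia-like level, *Ctsh* 0.38% to 1.38% and *Ctsl* 0.55% to 1.56%. *Ctsd* was at 4.31% to 5.76% and *Ctsa* at 5.45% to 14.4% of the microglia-like level.

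Microglia-like cells were also compared among themselves. Those with a UMI of at least 2 of the markers *Cxcl13*, *Ch25h*, *Lpl*, *Itgax*, *Clec7a* and *Axl*, which mark microglia activated by disease, were set against those with none. Without shared barcodes niacin replicate 1 held 3 activated cells, so for this comparison, after seeing the data, shared barcodes were kept in the library where they were deepest. This gave 48, 13 and 26 activated and 299, 697 and 793 other cells, with 68, 73 and 96 cells that had a single marker left between them. Activated cells were deeper, with medians of 10070, 7941 and 8072 UMIs against 2571, 4901 and 4231, and a deeper cell is more likely to show a marker.

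Activated microglia-like cells carried more of 7 of the 9 genes, and *Ctsb* and *Ctsz* led. By the same edgeR test 7 were called higher and 0 lower, where 8.69% of the 8376 genes tested were called higher, 5.23% lower and 13.9% in either direction. At an unadjusted p under 0.05 the lower ones were 1, *Cst3*. DESeq2 called 5 of the 9 higher and 0 lower. The median log2 fold change was 0.56 over the 9 genes and -0.01 over all genes.

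*Ctsb*, which did not separate microglia-like from recruited cells, rose from 1908, 1400 and 1383 CPM in other to 4522, 5168 and 2437 CPM in activated microglia-like cells. The groups did not overlap, and the log2 fold change was 1.42 (SE 0.18, edgeR adjusted p = 2.8e-09). *Ctsz* rose from 1285, 1757 and 1634 CPM to 2512, 4318 and 2737 CPM, a log2 fold change of 1.10 (SE 0.17, edgeR adjusted p = 9.4e-07). Both passed in each of the 16 alternatives run.

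*Ctsc* rose from 541, 537 and 469 CPM to 1167, 716 and 826 CPM (log2 fold change 0.91, SE 0.18, edgeR adjusted p = 0.00012). It lost the call without vehicle replicate 2 (adjusted p = 0.10). *Ctsl*, *Ctsd*, *Ctss* and *Ctsh* rose less, with log2 fold changes of 0.72, 0.56, 0.56 and 0.51. *Ctsd* was at 7779, 13478 and 7118 CPM in activated and 5648, 7047 and 7206 CPM in other cells, so niacin replicate 2 did not share the rise. Without niacin replicate 1 *Ctsd* and *Ctsh* lost their call, with edgeR adjusted p of 0.15 and 0.071. Without vehicle replicate 2 *Ctsd*, *Ctss* and *Ctsh* did, with 0.27 to 0.30, and without niacin replicate 2 all 4 of these genes did, with 0.091 to 0.32. With the counts of each cell thinned to 2000 UMIs, *Ctsd* and *Ctss* stayed called and *Ctsl* (adjusted p = 0.063) and *Ctsh* (adjusted p = 0.11) did not. The states were set before thinning, so thinning does not remove the effect of depth on which cells count as activated.

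*Cst3* was lower in the activated cells of every library, at 14467, 27501 and 27884 CPM against 22919, 37288 and 40435 CPM. The log2 fold change of -0.44 (SE 0.16) missed the threshold, with an edgeR adjusted p of 0.052, and it passed in 8 of the 16 alternatives, equal depth among them (adjusted p = 0.00087). *Cst3* UMIs per cysteine cathepsin UMI were 1.22 ± 0.38 (SD, n = 3) in activated and 2.91 ± 0.63 (SD, n = 3) in other microglia-like cells, and the ranges did not overlap. *Ctsa* did not pass, with a log2 fold change of 0.26 (SE 0.18, edgeR adjusted p = 0.40), and was higher in activated cells of 1 library.

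**Figure D5:**
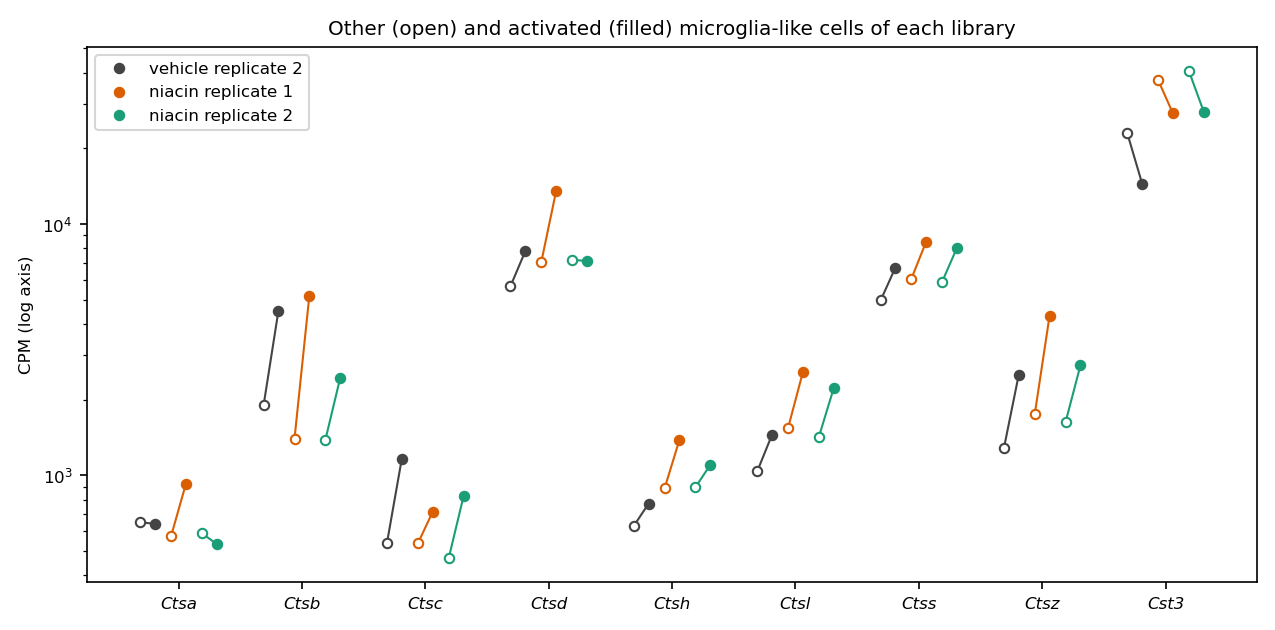
Level of each gene in other (open points) and activated (filled points) microglia-like cells, in CPM on a log axis, with a line joining the pair of each library. *Ctsb*, *Ctsc*, *Ctsh*, *Ctsl*, *Ctss* and *Ctsz* rise in each library, *Cst3* is lower in each, and the *Ctsd* pair of niacin replicate 2 is nearly level, at 7206 and 7118 CPM.

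The niacin and vehicle libraries were set side by side without a test. In microglia-like cells *Cst3* was higher in both niacin libraries, by log2 ratios of 0.63 and 0.81, as were *Ctsl*, by 0.57 and 0.46, and *Ctsh*, by 0.42 and 0.45. *Ctsb* was lower in both, by log2 ratios of -0.54 and -0.52. With shared barcodes kept in the deepest library, *Ctsb* gave -0.80 and -0.84 and *Cst3* 0.81 and 0.91. In vehicle replicate 2, activated cells were 48 of 415 microglia-like cells, against 13 of 783 and 26 of 915 in the niacin libraries, and the part of this in the levels was not tested. Within the other, non-activated cells, *Ctsb* was at 1908 CPM in the vehicle and at 1400 and 1383 CPM in the niacin libraries.

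Recruited myeloid-like cells of the niacin libraries had log2 ratios over vehicle of 1.86 and 1.78 for *Cst3*, -1.13 and -1.01 for *Ctss* and -1.42 and -1.10 for *Ctsc*. The different make-up of the recruited class between libraries, which also depended on the barcodes kept, cannot be told apart from treatment in these sums. Within nonclassical monocyte-like cells *Cst3* was at 4483 CPM in the vehicle and at 5133 and 4929 CPM in the niacin libraries.

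Other genes of the lysosome were read from the same fit. Of the 7 other cathepsins listed, 3 passed the filter on low counts, and all 3 were called higher in microglia-like than in recruited myeloid-like cells. Of all genes tested, 17.4% were called higher and 14% lower. *Ctsf*, a cysteine cathepsin, was at 141, 200 and 192 CPM against 1.19, 0 and 13.9 CPM, with a log2 fold change of 5.29 (SE 0.55, edgeR adjusted p = 6.8e-06). The recruited values of *Ctsf* rest on few UMIs, and its log2 fold change ran from 4.27 to 6.76 with 1 library left out. *Ctsf* passed the filter through its microglia-like sums, so its direction was partly set by the filter. *Lgmn*, the asparaginyl endopeptidase that processes cathepsins, was at 3128, 2948 and 3059 CPM against 798, 327 and 265 CPM, with a log2 fold change of 2.85 (SE 0.35, edgeR adjusted p = 3.0e-05). *Ctso* showed a log2 fold change of 1.21 and an edgeR adjusted p of 0.026, which rose to 0.16 and 0.30 without niacin replicates 1 and 2.

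*Cstb*, the cystatin that acts inside the cell, went against cystatin C. It was at 91.0, 55.4 and 83.4 CPM in microglia-like and 538, 78.8 and 107 CPM in recruited cells, a log2 fold change of -1.32 (SE 0.45, edgeR adjusted p = 0.039), and was lower in microglia-like cells of each library. It was 1 of 2 listed inhibitors that passed the filter on low counts, and without vehicle replicate 2 its adjusted p was 0.43. Within microglia-like cells it was higher in the activated ones, by 1.80 on the log2 scale (SE 0.19, edgeR adjusted p = 5.6e-12). *Cst7*, which encodes cystatin F, an inhibitor that reaches lysosomes, was also higher in activated cells, at a mean of 137 against 8.56 CPM and a log2 fold change of 4.15 (SE 0.31, edgeR adjusted p = 6.8e-19).

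Of 37 other lysosomal hydrolases, 15 were higher and 4 lower in microglia-like than in recruited cells, where 17.4% of all genes tested were called higher and 14% lower. Their median log2 fold change was 0.71 against 0.24 over all genes, and 12 of the 37 were called without niacin replicate 2. Among the higher ones were *Arsb*, an arylsulfatase, with a log2 fold change of 4.11 and *Pla2g15*, a phospholipase, with 2.69. *Acp5*, *Gm2a* and *Gla* were lower, by log2 fold changes of -6.01, -2.52 and -2.31. *Acp5* was at 2.43, 1.40 and 0.53 CPM in microglia-like and 132, 56.3 and 74.4 CPM in recruited cells. The size of its fold change therefore rests on few UMIs. *Gm2a* encodes an activator protein of ganglioside breakdown.

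The counts of the next 4 lists stand against the same 17.4% and 14% of all genes. Among 20 lysosomal membrane and associated genes, 6 were higher and 1 lower, led by *Cd63* with a log2 fold change of 2.74, and without niacin replicates 1 and 2 the called ones numbered 4 and 2. The proton pump that acidifies the lysosome did not move one way. Of 17 pump genes tested, 4 were higher, with *Atp6v0a2* at 1.65, and 5 lower, with *Atp6v1b2* at -1.19, and 4 and 1 of the 17 were called without niacin replicates 1 and 2. Of 13 sorting genes 3 were higher and 0 lower by edgeR (3 lower at an unadjusted p under 0.05, and 0 with DESeq2). Of these 3, *Gnptg*, *Sort1* and *Nagpa*, only *Nagpa* passed without vehicle replicate 2 and only *Gnptg* without niacin replicate 1. Of 13 regulators 5 were higher and 2 lower, *Mitf* with a log2 fold change of 1.68 and *Tfeb* with -1.09 among them. Without niacin replicate 1 *Mitf* and *Tfeb* lost their call (edgeR adjusted p = 0.092 and 0.14), without niacin replicate 2 *Mitf* did (0.20), and 3 of the 13 regulators passed with either niacin library left out.

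Between activated and other microglia-like cells, 0 of 3 other cathepsins were called by edgeR's test or DESeq2, and 0 at an unadjusted p under 0.05. Of 35 hydrolases 12 were higher and 1 lower, against 8.69% and 5.23% of all genes tested, a total of 13 that became 4 without vehicle replicate 2 and 7 without niacin replicate 2. Of the 13 regulators, *Tfeb* and *Mitf* included, 0 were called by edgeR or DESeq2, with 1 higher and 1 lower at an unadjusted p under 0.05.

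For each cathepsin and *Cst3*, the genes with the most similar level over 24 sums of 9 cell classes and 3 libraries were found by Pearson's r of log2(CPM + 10) among 3315 genes. These sums share libraries and depth, and r is given as a description. *Cst3* was most like *Itgb5* (r = 0.94), *Ctsd* most like *Ltc4s* (0.82), *Ctsl* most like *Sgk1* (0.90) and *Ctss* most like *Fcgr1* (0.93). *Ctsz* was most like *Asah1* (0.94) and *Lgmn* (0.94), both lysosomal. *Ctsb* was most like *Lrp1* (0.94) and *Lamp1* (0.93), and *Ctsa* most like *Ctsb* (0.89). *Ctsh* was most like *March1* (0.91) and *Ctsz* (0.91), and *Ctsc* most like *Magt1* (0.85).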

How the data were processed

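The authors aligned reads with Cell Ranger 3.1 (STAR) to mm10 and deposited UMI counts per gene and barcode called as a cell, without normalization. Barcodes with at least 200 genes and at most 20% mitochondrial UMIs were kept (5528 of 6947). A cell took the class with the highest summed marker UMIs if at least 3 distinct markers were seen and the sum was at least 2 times that of every other of 16 lists. Scrublet (scanpy 1.11.5) marked 26 cells (0.470%), too few for a working call, and doublets were kept. Class sums of each library were tested with edgeR 4.0.16 in R 4.3.3 (quasi-likelihood test, TMM, filterByExpr). The library was the block because both sums of a pair come from the same pool. With 3 libraries, p-values measure how the difference within a pair varies between libraries, which also differ in treatment and in recruited states.

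On simulated counts for microglia-like against recruited cells, 78.9% of genes changed by a log2 fold of 2 and 15.5% of those changed by 1 were recovered (8768 genes). For activated against other cells the shares were 86.5% and 45.8% (8128 genes). The simulation gave all genes 1 dispersion (0.062 and 0.019), changed 187 and 192 of the genes tested, and made each change equal in every library. The real counts differ in these points, so the shares hold for these settings only.

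Intervals and limits for a count of 0 (3 counts) cover counting error only, and shares are exact. Genes outside the 9 were named by level (mean of at least 50 CPM for cathepsins and inhibitors) or, in each other list, as the up to 3 largest called changes each way with 1 direction in all libraries. The text gives some of them, and 1 result is not reported here. Promoter letters came from RefSeq. The genes, lists and tests were chosen with earlier results of these data known. The spatial and human data were not analysed here.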

Additional observations from a re-analysis of the deposited data

Results flagged for a closer look

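*Ctsb* was singled out because the vehicle and niacin libraries moved in opposite directions. The log2 ratio of its CPM in microglia-like over recruited myeloid-like cells was 0.10 in vehicle replicate 2 and -0.83 and -0.39 in niacin replicates 1 and 2. The difference between treatments was not tested, since there is 1 vehicle library. With shared barcodes kept in the deepest library the ratios were 0.27, -0.09 and 0.08, which no longer split by treatment, and there *Ctsc* did, with -0.85 against 0.35 and 0.17. The part of the recruited states, which differ between libraries, was not tested.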

How the results depend on the processing

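*Ctsd*, *Ctsl* and *Cst3* kept direction and call in all 17 alternatives of microglia-like against recruited cells. *Ctsa*, *Ctsh*, *Ctss* and *Ctsz* lost the call in 4, 4, 5 and 2, and *Ctsb* gained it in 1. *Ctsc*, at -0.71 to 0.10 with 1 library left out, reversed to 0.10 without vehicle replicate 2, to 0.91 against nonclassical monocyte-like cells and to 0.82 against these with shared barcodes kept in the deepest library. Without the replicate block *Ctss* lost its call (adjusted p = 0.053), and DESeq2 1.42.0 left *Ctsa* at 0.071. Genes called (2867) became 1622 at 2000 UMIs per cell, where fewer genes were tested, 4848 with shared barcodes kept and 4368 with them kept in the deepest library. Of the 9 genes, 5 were called with shared barcodes kept, and 5 with them kept in the deepest library. Leaving out 1 library gave 1636 (without niacin replicate 2) to 2531 (without vehicle replicate 2) genes and 3 to 7 of the 9 genes.

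For activated against other cells the 1166 calls became 504 with DESeq2, 471 without the replicate block, 403 at 2000 UMIs and 371 with shared barcodes left out in 2 libraries, where *Ctsa* reversed to -0.040. Of the 9 genes, 5 were called with DESeq2, 4 with no filter on low counts, 3 without the replicate block, and 4 in those 2 libraries. *Ctsh* lost the call in 10 of the 16 alternatives, *Ctsd* in 8, *Ctsl* and *Ctss* in 4 each and *Ctsc* in 1. Leaving out 1 library gave 312 (without vehicle replicate 2) to 1433 (without niacin replicate 1) genes and 3 to 6 of the 9. Where no cause is given, the cause was not tested.

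Not run, with under 10 cells in a library, were a 4 times marker dominance, recruited cells without dendritic and nonclassical monocyte-like cells, and 3 activation markers. Of the shares of cells with a UMI, 50 moved and 31 did not without thinning, and 51 and 30 at 1000 UMIs. Other named lysosomal genes lost the call in 64 of 474 recomputed values. The 18 recruited cells of niacin replicate 1 limit what that library shows.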

Other observations

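Erythroid-like cells, called from hemoglobin genes and *Alas2*, held 27278 CPM of *Cst3* and 4610 CPM of *Ctsd* in niacin replicate 1 (40 cells) and 5666 and 1041 CPM in niacin replicate 2 (13 cells) when shared barcodes were left out. With these barcodes kept in the deepest library the levels were 3001 and 512 CPM in 78 cells and 789 and 182 CPM in 49 cells. The erythroid-like cells of niacin replicate 1 that remained without shared barcodes had a median of 1185 UMIs. The 9 genes made up 3.85% of their UMIs, against 5.50% in microglia-like cells of that library. *Ctsd* and *Ctss* supplied 41.0% and 28.7% of their cathepsin UMIs, against 36.1% and 29.9% in those microglia-like cells. In niacin replicate 2 the 9 genes made up 0.93% of erythroid-like UMIs. The class name rests on the markers alone, and whether microglial RNA adds to these levels was not tested.

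In niacin replicate 2, where shared barcodes kept in the deepest library gave 23 classical monocyte-like cells, *Ctss* was at 1739 CPM, *Ctsb* at 768 CPM and *Cst3* at 3441 CPM. The 192 classical monocyte-like cells of vehicle replicate 2 held 5157, 2064 and 1258 CPM in the same order. The nonclassical monocyte-like cells of these 2 libraries held 1739 and 2002 CPM of *Ctss* and 4912 and 4544 CPM of *Cst3*, niacin replicate 2 first. With 1 vehicle library no test was possible.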
